A study of Mus musculus with 81 samples.

Results

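The genes of the 3 Runx transcription factors, Runx1, Runx2 and Runx3, and of their common partner Cbfb were examined for chromatin accessibility in mouse cells that change fate. They are 4 of 21887 protein-coding genes in the gene table used. Each locus is the mm10 gene model with 10 kb on each side: 245 kb for Runx1 on chromosome 16, 339 kb for Runx2 on chromosome 17, 77.3 kb for Runx3 on chromosome 4 and 67.3 kb for Cbfb on chromosome 8. The RefSeq table used lists 6 start sites for them, a distal and a proximal one for Runx1 and Runx3 and 1 each for Runx2 and Cbfb. Peaks were counted in a locus when they overlapped it, and assigned to a start when they lay within 1 kb of it.

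ATAC-seq marks open chromatin by the insertion of a transposase. Repli-ATAC-seq applies it to DNA that cells copied during a 10 min pulse of 20 µM EdU, harvested directly for nascent chromatin, or for mature chromatin 2 h later, after a chase in 10 µM thymidine; the DNA that the capture did not bind is the bulk sample. Wild-type 129/Ola embryonic stem (ES) cells were treated with FGF2 and Activin A to become epiblast-like cells (EpiLC) and sampled at 0h, 9h and 48h. Fibroblasts from mouse embryos (MEF, Black6-129X1/SvJ) were heterozygous for Col1a1::tetOP-OKSM, R26-M2rtTA and Oct4GFP, so that doxycycline at 2 µg/mL switches on the reprogramming factors Oct4, Klf4, Sox2 and Myc. They were sampled at 6h, 12h and 36h, with a bulk sample beside the nascent and another beside the mature one, and at 60h as fractions Q1 to Q4 sorted by a dye that dividing cells dilute; the order of brightness among the fractions is not stated. In a last experiment the same fibroblasts received 5 µg/mL aphidicolin, an inhibitor of replicative DNA polymerases, from 4 h after induction for 10 h, and were harvested with untreated, equally induced fibroblasts at 14h. Every fibroblast group carried the cassette and had received doxycycline; no uninduced fibroblasts were analysed here. The 81 samples form 27 groups of 3, and 25 of these groups are represented by 1 pooled peak list each, so changes between those lists have no replicate spread and no test.

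Runx proteins bind DNA through the Runt domain, and CBFβ, the product of Cbfb, binds that domain without touching DNA and stabilizes the complex. Runx1 is known for its role in blood formation, Runx2 in bone formation and Runx3 in T cells and sensory neurons. Runx genes are transcribed from a distal and a proximal promoter, which give proteins with different N termini. In fibroblasts, Runx motifs occur at enhancers together with motifs of AP-1 and TEAD factors.

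The 250 bases before 3 of the starts are shown because distal and proximal promoters are read apart below. At Runx1 the distal and proximal starts differed in their bulk peaks, while both Runx3 starts had them in ES cells and fibroblasts. They are from RefSeq on GRCm38.p6, which shares coordinates with mm10, and all 6 starts were matched. The Runx2 gene model extends upstream of its listed start, and the bases there are not shown. Capitals mark the Runx core motif ACCACA in either orientation.
Runx1 distal (chr16:92826075-92826324, minus strand): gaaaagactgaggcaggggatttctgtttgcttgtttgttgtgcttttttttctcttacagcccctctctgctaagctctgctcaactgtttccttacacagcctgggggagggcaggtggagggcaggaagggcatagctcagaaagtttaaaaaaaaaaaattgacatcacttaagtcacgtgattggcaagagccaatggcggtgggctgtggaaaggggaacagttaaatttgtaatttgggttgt
Runx1 proximal (chr16:92697330-92697579, minus strand): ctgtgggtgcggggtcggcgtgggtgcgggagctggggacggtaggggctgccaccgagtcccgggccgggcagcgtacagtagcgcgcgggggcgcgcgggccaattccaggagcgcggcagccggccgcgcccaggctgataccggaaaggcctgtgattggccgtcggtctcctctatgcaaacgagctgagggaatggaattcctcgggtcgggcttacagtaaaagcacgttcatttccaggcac
Runx3 distal (chr4:135120395-135120644, plus strand): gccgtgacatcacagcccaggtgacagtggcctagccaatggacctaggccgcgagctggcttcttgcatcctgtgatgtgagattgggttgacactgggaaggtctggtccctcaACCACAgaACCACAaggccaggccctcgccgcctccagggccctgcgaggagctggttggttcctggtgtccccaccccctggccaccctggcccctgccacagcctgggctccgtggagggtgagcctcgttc

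The distal and proximal promoters differ in base composition. In the 300-base window from 250 bases before to 50 bases after the start, the Runx1 distal and Runx2 promoters held 2 CpG dinucleotides each (GC content 45.0% and 45.3%), more than 14.1% of the 32851 promoters in the table. Runx3 distal held 8 CpG (63.7% GC, more than 51.4% of promoters). Runx1 proximal held 35, Runx3 proximal 45 and Cbfb 30, more than 93.0%, 98.1% and 88.3% of promoters. In the whole table, starts with 0 to 2 CpG had a peak in 16.3% of cases in ES cell bulk at 0h and 19.4% in MEF bulk at 12h. Starts with 24 or more CpG had one in 99.1% and 98.9%.

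Runx1 distal, Runx2 and Runx3 distal share 1 exact stretch of 18 bases, the longest run common to their windows. It is shown because it holds 2 copies of the Runx core motif in tandem. Capitals mark the shared run and lower case up to 6 bases on each side.
Runx1 distal (run at chr16:92826031-92826048, minus strand): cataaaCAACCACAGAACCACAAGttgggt
Runx2 (run at chr17:44814589-44814606, minus strand): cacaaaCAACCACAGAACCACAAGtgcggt
Runx3 distal (run at chr4:135120509-135120526, plus strand): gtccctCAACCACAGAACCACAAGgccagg
The run begins 26 bases after the start site in Runx1 and 21 bases after it in Runx2, and 136 bases before it in Runx3. Among the 32851 windows, 4 held it on either strand: those 3 and 1 of Gm16225, a non-coding gene that overlaps the Runx3 locus. ACCACA, searched on both strands, occurred 2 or more times in 1.81% of the windows of the same length and at least once in 16.8%. Runx1 distal and Runx3 distal held 2 copies and Runx2 held 3, a count of 3 or more that 0.183% of windows reached. Runx1 proximal, Runx3 proximal and Cbfb held 0, as did most windows in the table. CCAAT, the NF-Y box, occurred 2 times in both Runx1 windows and in Runx3 distal (11.7% of windows held 2 or more). The AP-1 letters TGANTCA were in none of the 6 windows (present in 7.81% of all), and the TEAD letters GGAATG were in 1, Runx1 proximal (14.7% of all).

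The labels were checked against start-site peaks of marker genes. Of the 5 fibroblast markers with a listed start, 5 had a peak in MEF bulk at 6h, 12h and 36h and 3 in ES cell bulk at 0h, where Col3a1 and Prrx1 had none. Of 5 ES cell markers with a listed start, 5 had a peak in ES cell bulk at 0h and 3 in MEF bulk at 36h, where Zfp42 and Nanog had none. Of 3 macrophage and blood markers with a listed start, 1 had a peak in ES cell bulk at 0h and in MEF bulk at each time, while Ptprc and Cx3cr1 had none. Of 3 bone and cartilage markers, Acan had a peak in the same lists and Ibsp and Bglap had none. The 5 ES cell markers also had a peak in EpiLC bulk at 48h. All 3 EpiLC markers with a listed start had one in ES cell bulk at 0h, EpiLC bulk and MEF bulk at each time. Neither set separated EpiLC from ES cells. Of 3 endothelial markers, 2 had a peak in ES cell bulk at 0h and in MEF bulk. The T cell markers Cd3e and Cd8a had one in ES cell bulk at 0h and none in MEF bulk. List length ran from 137173 to 203188 peaks in bulk, from 57762 to 73518 in sorted fractions, from 14281 to 94946 in mature and from 3222 to 27693 in nascent chromatin. The MEF 6h nascent and mature lists, with 3222 and 14281 peaks, stand apart as short and weak.

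The 6 promoters gave 4 kinds of pattern across the 25 pooled lists. Cbfb and Runx1 proximal had a peak almost throughout (23 and 24 lists), Runx2 in fibroblast lists and in no list of the ES cell course (13 lists), Runx3 at both starts in every bulk list and in a part of the other lists (11 and 17 in all), and Runx1 distal in 4 lists. Over all starts, the share with a peak in bulk was 60.5, 60.3 and 61.1% at 0h, 9h and 48h of the ES cell course, 57.5, 59.9 and 55.7% at 6h, 12h and 36h in the nascent arm and 59.3, 58.5 and 56.0% in the mature arm. It was 48.6, 48.0, 48.9 and 43.5% in Q1 to Q4. Mature chromatin gave 49.9, 53.5 and 53.2% in the ES cell course and 21.9, 46.5 and 42.8% in MEF, and nascent chromatin 37.0, 35.8 and 44.2% and 7.43, 36.0 and 34.6%. Scores are the peak caller's own, and the share of a list that scores lower places a peak within that list.

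**Figure D1:**
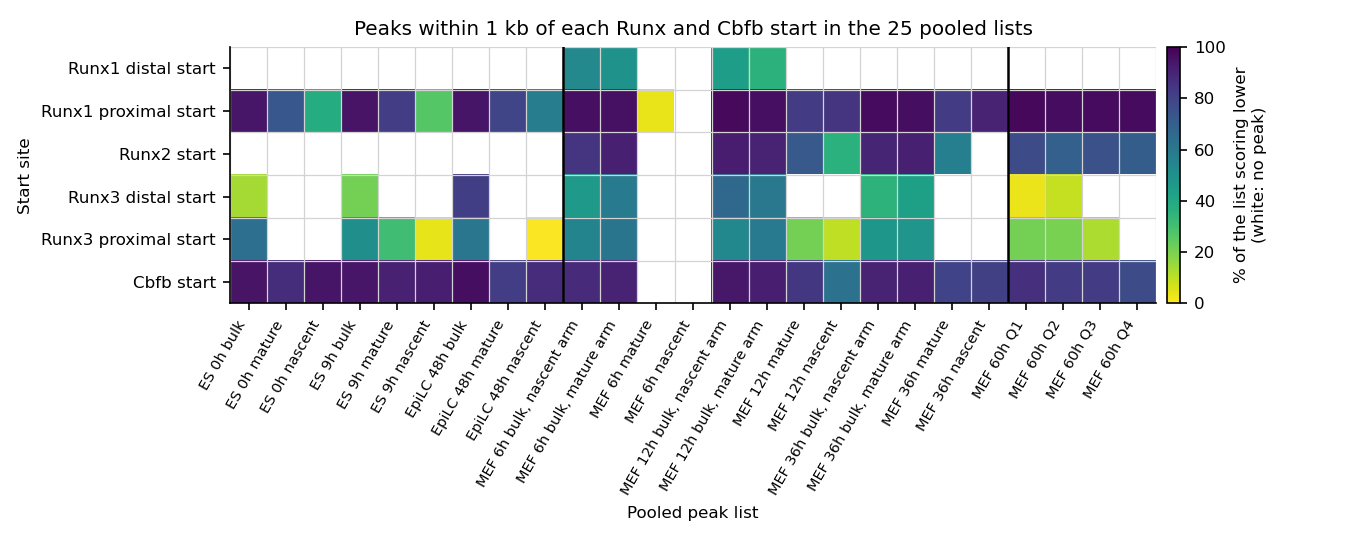
Peaks within 1 kb of the 6 start sites (vertical axis) in the 25 pooled peak lists (horizontal axis), coloured by the percentage of the list's peaks that score lower, white where there is no peak. Runx1 proximal and Cbfb are filled in 24 and 23 lists, Runx2 in 13 fibroblast lists, and Runx1 distal in the 4 MEF bulk lists of 6h and 12h.

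At the distal Runx1 start, from which the longer N terminus is made, a peak was present in both bulk lists at 6h and both at 12h of reprogramming and in no other pooled list. Its scores were 561 and 616 at 6h (nascent and mature arm) and 475 and 348 at 12h, each above 35.6 to 53.1% of its list. No peak lay within 1 kb at 36h, at 60h, in nascent or mature chromatin, or anywhere in the ES cell course. Of 18767 starts with a peak in both 6h bulk lists, 4.89% had none in both 36h bulk lists. In the experiment at 14h, 1 of 3 untreated libraries had a peak there (score 159) and 0 of 3 aphidicolin libraries did. With a window of 2 kb, 7 pooled lists had a peak near this start.

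At the proximal Runx1 start the peak was among the strongest of each bulk list. In ES cells it scored 3671 at 0h, 2658 at 9h and 2425 at 48h, above 94.1 to 94.9% of those lists. In MEF bulk of the nascent arm it scored 4340, 7346 and 5481 at 6h, 12h and 36h, above 95.7 to 97.3%, and in the sorted fractions above 96.7 to 97.8%. It was also present in 6 of 6 mature and 5 of 6 nascent lists, the exception being nascent chromatin at MEF 6h. In nascent chromatin its place in the list ranged from above 26.3% (ES 9h) to above 90.4% (MEF 36h). The proximal start had peaks in both lineages, while the distal start of the same gene had a peak in 4 lists.

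The listed Runx2 start had no peak in any of the 9 lists of the ES cell course. In MEF it had a peak in 6 of 6 bulk lists and 4 of 4 sorted fractions. Its scores in the nascent arm were 2168 at 6h, 4545 at 12h and 2951 at 36h, above 84.6, 91.8 and 89.7% of the list. The sorted fractions gave 801, 980, 831 and 286 for Q1 to Q4, above 69.3 to 77.1%. In copied chromatin it appeared at 12h, mature (330) and nascent (101), and at 36h in mature chromatin only (190). Of the starts with a peak in both 6h bulk lists, 8.36% had none in the 3 bulk lists of the ES cell course, as was the case for Runx2 and Runx1 distal.

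Runx3 had bulk peaks at both starts in ES cells and in fibroblasts. At the distal start the ES cell peaks were weak at 0h and 9h, with scores of 106 and 114 (above 13.4 and 20.9% of the list), while EpiLC at 48h gave 1126 (above 81.3%). MEF bulk gave 433, 1176 and 281 at 6h, 12h and 36h in the nascent arm, above 45.9, 66.5 and 35.2%. The mature arm gave 947, 878 and 365. At 60h the distal start had weak peaks in Q1 and Q2 (62 and 149) and none in Q3 or Q4. The proximal start scored 763, 315 and 474 along the ES cell course and 602, 680 and 430 in the nascent arm of MEF bulk, in the middle of each list (above 47.2 to 63.7%). It had a peak in Q1 to Q3 and none in Q4. In copied chromatin the distal start had no peak in 12 lists and the proximal start had one in 5 of 12. Those 5 peaks were weak, with scores of 35 to 125, above 0.43 to 30.8% of their lists. The one in nascent chromatin at MEF 12h lay 874 bp from the start.

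The Cbfb start, which serves the partner of all 3 Runx proteins, had a peak in 23 of 25 lists, the exceptions being nascent and mature chromatin at MEF 6h. Scores in bulk were 3888, 2451 and 2881 along the ES cell course and 2579, 5260 and 2993 in the nascent arm of reprogramming, above 87.8 to 96.3% of each list. In nascent chromatin of ES cells at 0h it scored 361, above 94.5% of that list. Of the starts with a peak in both 6h bulk lists, 47.9% had one in every pooled list outside nascent and mature chromatin at MEF 6h, as Cbfb and Runx1 proximal did.

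Over whole loci, Runx1 and Runx2 held more bulk peaks in fibroblasts than in ES cells, while the numbers at Runx3 overlapped and those at Cbfb were lower. Runx1 held 24, 13 and 16 bulk peaks at 0h, 9h and 48h of the ES cell course. In MEF it held 39, 50 and 35 at 6h, 12h and 36h in the nascent arm and 50, 47 and 37 in the mature arm. Runx2 held 15, 19 and 13 in the ES cell course, 56, 64 and 34 in the nascent arm and 63, 61 and 45 in the mature arm. Both loci held more peaks at every MEF bulk time than at any ES cell time. Of gene loci with a bulk peak in either list, 46.6% held more peaks in MEF at 12h than in ES cells at 0h.

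Runx3 held 13, 17 and 15 peaks in the ES cell course and 11, 16 and 11 in the nascent arm (14, 15 and 10 in the mature arm). Cbfb held 8, 9 or 10 in ES cell bulk and 5 to 7 in MEF bulk. Per 100 kb of locus, Runx1, Runx2 and Runx3 lay close together in MEF at 12h (20.4, 18.9 and 20.7 peaks). In the sorted fractions at 60h Runx1 held 19, 19, 20 and 19 peaks for Q1 to Q4, Runx2 20, 17, 22 and 15, Runx3 5, 6, 4 and 1, and Cbfb 3, 2, 3 and 4. Together the loci held 62.7 to 72.4 per 100000 peaks of the MEF bulk lists and 66.0 to 67.8 of the sorted ones. In reverse, 31 of the 60 ES cell bulk peaks at 0h overlapped a MEF peak of 12h (51.7%, 39.3 to 63.8%), against 40.3% of that list. Of gene loci with a 6h bulk peak, 52.2% (nascent arm) and 61.1% (mature arm) held fewer at 36h, as Runx1, Runx2 and Cbfb did in both arms. In the ES cell course bulk lists the loci held 34.7 to 38.9 per 100000.

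**Figure D2:**
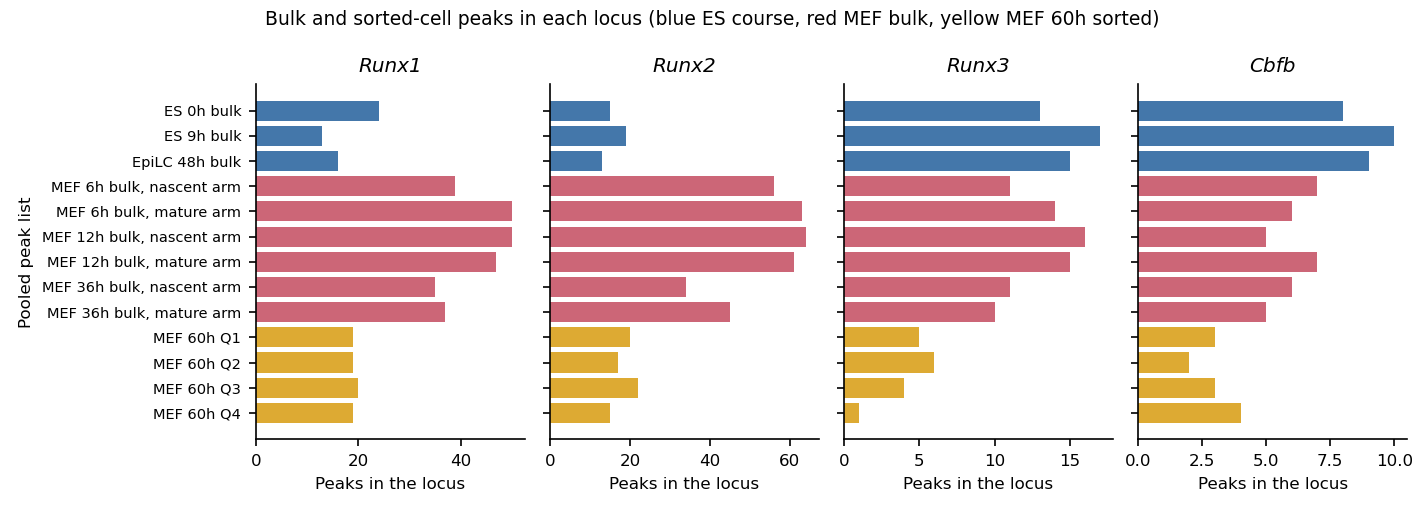
Number of peaks in each locus (horizontal axes, 1 panel per gene) in 13 pooled peak lists (vertical axis): ES cell course in blue, MEF bulk in red, sorted MEF at 60h in yellow. Runx1 and Runx2 reach 50 and 64 peaks in MEF bulk against at most 24 and 19 in the ES cell course, while Runx3 and Cbfb stay within 1 to 17 and 2 to 10 over these lists.

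Merging overlapping peaks of the 25 lists gave 198 sites: 68 at Runx1, 91 at Runx2, 23 at Runx3 and 16 at Cbfb, with a median width of 414.5 bp. At Runx1, 39 sites had peaks in MEF lists only, 13 in ES cell course lists only and 16 in both. At Runx2 the numbers were 63, 16 and 12, at Runx3 7, 7 and 9, and at Cbfb 4, 8 and 4. Sites with a peak in all 6 MEF bulk lists numbered 66, of which 38 had no peak in any ES cell course list. Those 38 lay mostly at Runx2 (19) and Runx1 (15), with 3 at Runx3 and 1 at Cbfb. The MEF lists outnumber those of the ES cell course and include the longest ones, and the same counts over all sites were not made. At 12h, 14.1% of Runx2 bulk peaks in the nascent arm overlapped an ES cell bulk peak of 0h (9 of 64, Wilson 95% interval 7.58 to 24.6%), against 32.3% of the whole list. Runx1 had 13 of 50 (interval 15.9 to 39.6%), and the share was for Runx3 56.2% (9 of 16, 33.2 to 76.9%) and for Cbfb 60.0% (3 of 5, 23.1 to 88.2%). Intervals cover counting error only.

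Away from the listed starts, 1 site had a peak in all 25 lists. It lies 37.4 kb into Runx2 at chr17:44776712-44777838 and covers the start of Supt3, a protein-coding gene on the other strand whose start is 37.5 kb from that of Runx2. A Cbfb site in 24 lists (chr8:105224414-105225702) covers the start of D230025D16Rik in the same way. Peaks there are counted in the Runx2 and Cbfb loci but belong to the promoters of other genes. A Runx2 site 79.0 kb from the start (chr17:44734444-44736764) had a peak in 23 lists, including all 9 bulk lists. The Runx2 locus was therefore not closed in ES cells, although its listed start had no peak. No proximal start is listed for Runx2, and whether this site is a promoter was not tested. All 9 bulk lists shared 15 sites in the 4 loci, 6 of them at Runx3.

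**Figure D3:**
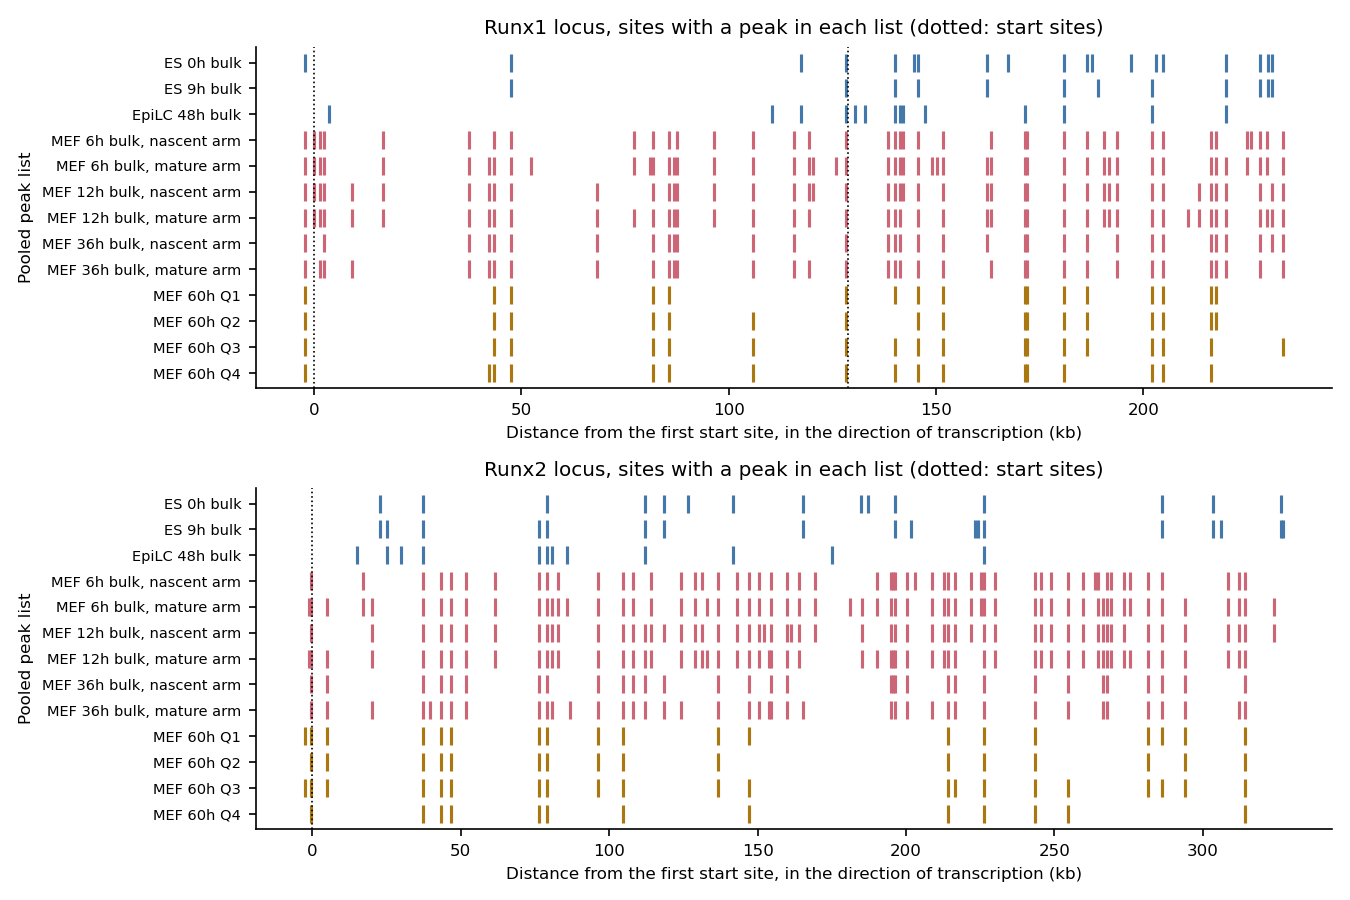
Sites with a peak along the Runx1 (top) and Runx2 (bottom) loci in 13 pooled peak lists (vertical axis), by distance from the listed distal start in kb (horizontal axis, direction of transcription); each tick is a site and dotted lines are start sites. The MEF rows (red) carry 35 to 50 peaks at Runx1 and 34 to 64 at Runx2, the ES cell rows (blue) 13 to 24 and 13 to 19.

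Between 6h and 36h of reprogramming, 46 of 113 bulk peaks in the 4 loci had no overlapping peak at 36h in the nascent arm (40.7%, interval 32.1 to 49.9%), against 38.5% of the whole list. The mature arm gave 48 of 133 (36.1%, 28.4 to 44.5%) against 38.9%. The loci as a group lay near the background. Runx2 lost 29 of 56 peaks in the nascent arm (51.8%, 39.0 to 64.3%), an interval just above the whole-list share, and 27 of 63 in the mature arm (42.9%, 31.4 to 55.1%), an interval that includes it. Runx1 lost 12 of 39 and 16 of 50 (30.8 and 32.0%). Of 36h peaks, 18 of 86 had no 6h peak in the nascent arm (20.9%, 13.7 to 30.7%), against 20.6% of the list, and 13 of 97 in the mature arm (13.4%, 8.0 to 21.6%), against 12.6%.

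Of 105 sites with a peak in both 6h bulk lists, 32 had none in either 36h bulk list. They were 21 of 51 at Runx2, 8 of 38 at Runx1, 2 of 6 at Cbfb and 1 of 10 at Runx3. The same share over all sites was not computed. The strongest of them was 259 kb into the Runx2 locus (chr17:44554973-44555345), with scores of 1657 and 2828 at 6h and 654 and 616 at 12h. A Runx1 site 96.4 kb from the distal start (chr16:92729551-92729828) scored 1138 and 1814 at 6h and 1415 and 847 at 12h. Other sites of this kind lay 190 kb into Runx1 (593 and 1055 at 6h) and 164 and 265 kb into Runx2 (666 and 996, 568 and 1410). The distal Runx1 start itself ranked next by score at that locus. At Runx3 the site was weak (101 and 124), and at Cbfb a site 2.66 kb from the start scored 653 and 1153. None of these sites but 1 at Runx2, with a score of 42 in nascent chromatin at 6h, had a peak in any nascent, mature or sorted list.

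Sites that appeared by 36h were few. The strongest lay at the edge of the Cbfb locus, 57.5 kb from the Cbfb start and past that of D230025D16Rik (chr8:105227865-105228506). It had no peak at 6h, a score of 233 at 12h in the mature arm and 1994 and 1559 at 36h. At Runx1 a site 231 kb from the distal start, with ES cell bulk peaks (77 and 208), scored 340 and 91 at 12h and 99 at 36h in the nascent arm, with no 36h peak in the mature arm. A site 68.3 kb into the gene scored 163 and 276 at 12h and 264 and 234 at 36h. At Runx2, sites 112 and 118 kb into the locus appeared at 12h and scored 529 and 145 at 36h in the nascent arm, and both had ES cell bulk peaks at 0h (380 and 275). Runx3 gained 2 weak sites in the nascent arm only (180 and 62 at 36h), which also had peaks in both arms at 12h. In the mature arm only, a Runx3 site between the distal and proximal starts (chr4:135150305-135150962), chosen after its values were seen, scored 485 and 374 at 12h and 300 at 36h, and had bulk peaks of 1934, 1409 and 1794 in the ES cell course. None of the sites named in this paragraph had a peak in nascent or mature chromatin at 36h or in any sorted list at 60h. Those lists are shorter than the bulk lists.

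In the ES cell course Runx1 and Runx2 lost a larger share of their few peaks than the list as a whole. Of 24 Runx1 peaks at 0h, 17 had no peak at 48h (70.8%, interval 50.8 to 85.1%), and of 15 Runx2 peaks 10 had none (66.7%, 41.7 to 84.8%), against 38.9% of the list. Of 48h peaks, 9 of 16 at Runx1 and 7 of 13 at Runx2 were absent at 0h (56.2%, 33.2 to 76.9%, and 53.8%, 29.1 to 76.8%), intervals that include the 34.9% of the list. Runx3 lost 2 of 13 and Cbfb 2 of 8. Peak strength was not matched in this comparison.

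Copied chromatin was read against the bulk list of the same arm. At 12h of reprogramming 24 of 47 Runx1 bulk peaks had a mature peak (51.1%, interval 37.2 to 64.7%), against 34.5% of the whole list, while Runx2 had 17 of 61 (27.9%, 18.2 to 40.2%), Runx3 2 of 15 and Cbfb 3 of 7. In nascent chromatin the shares were 3 of 50, 8 of 64, 1 of 16 and 2 of 5, together 10.4% (6.28 to 16.7%) against 10.3%. At 36h the Runx1 share in mature chromatin was 29.7% (11 of 37, 17.5 to 45.8%) against 26.3%, Runx2 had 11 of 45 (14.2 to 38.7%) and Cbfb 4 of 5 (37.6 to 96.4%), and no Runx3 bulk peak had a mature one (0 of 10, interval 0 to 27.8%). In ES cells at 0h 19 of 60 bulk peaks in the 4 loci had a mature peak (31.7%, 21.3 to 44.2%) against 42.4%. The mature and nascent lists are shorter than the bulk lists, and a missing peak is one that was not detected at that depth.

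The aphidicolin experiment asks how accessibility changes when reprogramming fibroblasts cannot copy their DNA, and it has 3 libraries per group. In such bulk samples a change in the mix of cells and a change within each cell cannot be told apart. Counts were read over 103 consensus regions of the 4 loci, all of which passed the filter on low counts. Normalized to the bulk of regions (TMM), 25 regions fell and 8 rose (edgeR quasi-likelihood test, Benjamini-Hochberg adjusted p under 0.05), or 32.0% called against 35.9% of all 138996 regions (18.0% higher, 17.9% lower). Scaled by library totals alone, 11 member regions were lower and 18 higher (all regions 11101 lower and 42149 higher, with the median of all regions at 0.18), so each direction is relative to the bulk of regions. The count called was 19 without untreated library b or aphidicolin library b, 20 without aphidicolin library c, and 20 of the 75 regions that hold a peak in each of the 6 libraries. Over all regions the count also fell, from 49935 to 35052, 30467 and 32011 without those libraries in turn. Of all 100668 regions with a peak in each of the 6 libraries, 32425 were called. Of the 33 called regions, 8 stayed called in the same direction under every alternative fit in which they were tested. Groups did not overlap in 43 of 103 regions, against 46.6% of all.

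Fold change followed region strength in the table as a whole: with regions split into 10 equal classes by strength, the median was 0.37 (log2) in the weakest class and -0.32 in the strongest, where 72.0% fell. Of 13 member regions in the strongest class 8 fell. In the weakest 3 classes, where 23.4 to 33.0% of regions rose and 3.29 to 4.83% fell, 29 member regions included 3 that rose and 4 that fell. With offsets that remove this dependence, 17 member regions were lower and 5 higher of 103. Over all 138996 regions the same offsets gave 15267 lower and 16083 higher.

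**Figure D4:**
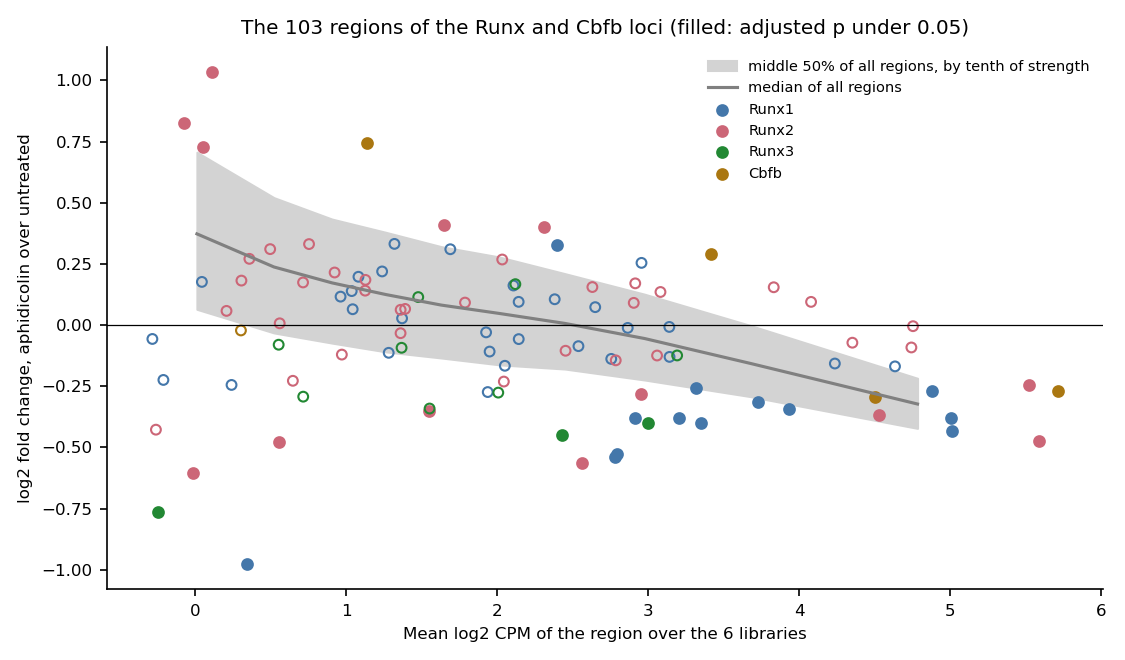
Log2 fold change of aphidicolin over untreated (vertical axis) against mean log2 CPM (horizontal axis) for the 103 regions of the 4 loci, filled where the adjusted p was under 0.05. The grey line and band are the median and middle 50% of all 138996 regions in 10 strength classes; the line passes from 0.37 to -0.32.

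Runx1 proximal fell. The region over the start (chr16:92697249-92698060) gave 5.37, 5.19 and 5.06 log2 CPM in the untreated libraries a, b and c and 4.81, 4.80 and 4.73 in the aphidicolin libraries. All 3 treated libraries lay below all untreated ones. The log2 fold change was -0.43 ± 0.09 (SE, edgeR adjusted p = 0.00130, n = 3 each), beside -0.32 for the median region of that strength, and it was not called with strength offsets (-0.10). Of its 3 neighbours within 1 kb, those 360 and 999 bp away fell by 0.40 and 0.34 on the log2 scale and the one 842 bp away gave -0.24 (edgeR adjusted p = 0.327). No consensus region lay within 1 kb of the distal start; the nearest were 1.35 kb away, which rose (0.33 ± 0.12, edgeR adjusted p = 0.0407), and 1.90 kb away, which fell (-0.26 ± 0.10, 0.0421). The former was lost when any of 3 libraries was left out and the latter for any of 5.

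The Runx2 start gave nearly equal values. Its region (chr17:44814676-44815270) read 4.27, 4.44 and 4.45 log2 CPM untreated and 4.28, 4.30 and 4.37 with aphidicolin, and the groups overlapped. The log2 fold change was -0.07 ± 0.08 (SE, edgeR adjusted p = 0.518). It lies in the strongest of the 10 classes, whose middle 50% ran from -0.42 to -0.22. Values from 0.08 with library totals to 0.17 with strength offsets were not called either.

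At Runx3 the regions over the starts did not pass and a neighbour did. The distal region (chr4:135120399-135120745) read 2.10, 2.26 and 2.08 untreated and 1.91, 1.93 and 1.79 with aphidicolin, without overlap, and missed the threshold (-0.28 ± 0.11, edgeR adjusted p = 0.0672). With strength offsets it was called lower (-0.33, edgeR adjusted p = 0.0481). The region over the proximal start (chr4:135152217-135153207) overlapped between groups, with 3.54, 3.25 and 2.90 against 3.39, 3.06 and 2.91 (-0.12 ± 0.14, edgeR adjusted p = 0.506). Its neighbour 864 bp away (chr4:135153409-135153910) fell by 0.45 on the log2 scale, from 2.79, 2.55 and 2.62 to 2.38, 2.18 and 2.06 (edgeR adjusted p = 0.00539), and was called under every alternative.

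The Cbfb promoter region (chr8:105170345-105171645), the strongest of the 103, read 6.03, 5.81 and 5.66 untreated and 5.67, 5.51 and 5.52 with aphidicolin, with an overlap between the groups. It was called lower (-0.27 ± 0.09, edgeR adjusted p = 0.0297). The call was lost with library totals (-0.11), turned to 0.14 with strength offsets, and was lost when any of 4 libraries was left out.

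**Figure D5:**
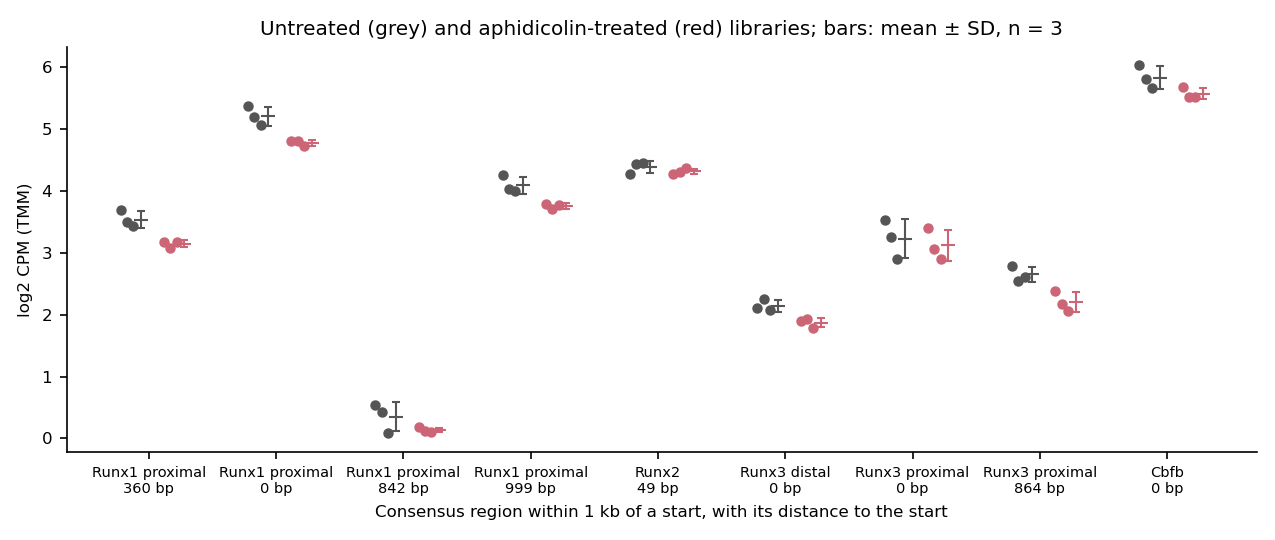
Log2 CPM (vertical axis) in the 3 untreated (grey) and 3 aphidicolin (red) libraries for the 9 consensus regions within 1 kb of a start (horizontal axis, with the distance to the start); bars give mean ± SD. The 3 aphidicolin values lie below all untreated ones over Runx1 proximal (4.73 to 4.81 against 5.06 to 5.37) and overlap them at Runx2.

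Outside the promoters the largest falls at Runx1 lay in the 3′ part of the gene. A weak region 58.0 kb beyond the proximal start (chr16:92639214-92639328) went from 0.84, 0.86 and 0.73 to -0.38, 0.07 and -0.19 log2 CPM (80, 80 and 65 counts against 42, 85 and 58), a log2 fold change of -0.98 ± 0.19 (SE, edgeR adjusted p = 0.000875). Regions 57.4 and 91.1 kb beyond it fell by 0.53 and 0.54. These 3 and the neighbour 360 bp from the proximal start were called under every alternative. In all 12 Runx1 regions fell and 1 rose of 43.

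At Runx2, 8 of 44 regions fell and 5 rose. Among those that fell was the region at the Supt3 start (-0.24), which turned direction with strength offsets. The strongest region of the locus, 314 kb into it (chr17:44500234-44500830), went from 5.78, 5.83 and 5.82 to 5.39, 5.29 and 5.32 log2 CPM (-0.47 ± 0.08, SE, edgeR adjusted p = 0.000273), without overlap, and was not called with strength offsets (-0.08). A region 205 kb into the locus fell by 0.56 and was called under every alternative, and weak ones 209 and 152 kb into it fell by 0.60 and 0.48, calls lost with library totals and without any of 3 or 5 libraries. The 3 largest rises were in weak regions: 1.04 at 4.84 kb from the start (7, 27 and 50 counts untreated, 76, 107 and 97 with aphidicolin), 0.83 at 155 kb and 0.73 at 125 kb. The others were 0.40 at 230 kb and 0.41 at 51.7 kb. None of the 5 rises was called with strength offsets. Those at 4.84 and 125 kb were lost without any of 5 or 3 libraries, and those at 230 and 51.7 kb without any of 2 or 4.

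Runx3 had 3 of 11 regions lower and 0 higher; beside the one at the proximal start, regions 5.45 and 6.32 kb away fell by 0.40 (not called with library totals) and 0.77. The latter (chr4:135158864-135159040), which was called under every alternative, lies within a site that had bulk peaks in the ES cell course (scores 648, 580 and 1339) and 1 in MEF (98 at 6h). Cbfb had 2 higher and 2 lower of 5. The region at its outer edge (chr8:105227906-105228036) rose from 0.71, 0.86 and 0.42 to 1.30, 1.68 and 1.19 log2 CPM (0.75 ± 0.17, SE, edgeR adjusted p = 0.00351), was called under every alternative, and lies in the site that gained its peak by 36h. That site lies past the end of the 47.3 kb Cbfb gene and past the start of D230025D16Rik, and which gene it serves was not tested. One 15.9 kb into the gene rose by 0.29, a call lost without any of 4 libraries. The region at the D230025D16Rik start fell by 0.30, a call lost with library totals, with strength offsets and without aphidicolin library c.

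Summed over each locus, none of the 4 genes passed the test, where 51.6% of 18144 loci did (edgeR, 4618 higher and 4740 lower). Runx2 came nearest, with 8.17, 8.26 and 8.32 log2 CPM untreated and 8.30, 8.34 and 8.34 with aphidicolin (0.08 ± 0.04, edgeR adjusted p = 0.145), and was called with library totals (0.10) and without untreated library c (0.11). Runx1 gave -0.01 ± 0.03, Runx3 -0.02 ± 0.05 and Cbfb 0.01 ± 0.03 (edgeR adjusted p = 0.842, 0.831 and 0.705). Cbfb was called with strength offsets (0.10). The number of the 4 at an unadjusted p under 0.05 was 0. Peaks called per library at Runx2 numbered 41, 36 and 36 untreated and 47, 46 and 47 with aphidicolin, without overlap (exact permutation test, two-sided p = 0.1, the smallest that 3 against 3 allow). Runx1 gave 43, 42 and 39 against 41, 47 and 48 (exact p = 0.3), Runx3 15, 12 and 11 against 13, 13 and 12 (exact p = 1) and Cbfb 4, 3 and 3 against 5, 6 and 5 (exact p = 0.1). The aphidicolin lists were longer (148292 to 163947 peaks against 116939 to 129546), and with all lists brought to the same length by score the Runx2 difference went from 9 to -3.33 peaks.

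Partners of the Runx proteins were read in the same locus sums. The list of AP-1 and TEAD partners at fibroblast enhancers holds 9 genes, among them the coactivator genes Yap1 and Wwtr1. Of these 9, 6 fell and 1 rose (4 and 2 with strength offsets). Their median was -0.15 against 0.00 for all genes tested. Fosl2, an AP-1 subunit, went from 7.29 ± 0.06 to 6.92 ± 0.03 log2 CPM (SD, n = 3; -0.37, edgeR adjusted p = 6.1e-05) and Fosl1 fell by 0.21, while Yap1, the coactivator of TEAD, rose by 0.21 (edgeR adjusted p = 0.0030). Fosl2 was not called over the gene model without flanks. Of 10 cofactor genes 3 fell and 1 rose (2 and 4 with strength offsets), with the methyltransferase gene Prmt1 at -0.26, the corepressor gene Sin3a at -0.16 and the acetyltransferase gene Crebbp at 0.13. Of the 3 genes of the ETO family of corepressors 2 rose, Runx1t1 (0.22) and Cbfa2t3 (0.21).

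Among 9 transducers of TGF-β and BMP signals and ubiquitin ligases that act with Runx, 2 fell and 1 rose: the ligase gene Smurf1 changed by -0.21, Stub1 by -0.16 (not called with strength offsets) and Smad4 by 0.23. Of 11 skeletal targets and partners 5 rose and 3 fell. Col10a1 and Mmp13, targets of Runx2 in cartilage, rose by 1.17 and 0.97, each through 1 weak region (0.62 to 1.77 and 0.81 to 1.78 log2 CPM). With strength offsets these rises were 0.68 and 0.49, both still called. Col1a1, which carries the reprogramming cassette, and Alpl changed by -0.15 and -0.19, neither called with strength offsets. Of 10 blood partners and targets 3 rose, led by Gfi1 (0.28) and Myb (0.27), and 3 fell, led by Csf1r (-0.23) and Cd4 (-0.12). Myb and Cd4 were not called with strength offsets, and Myb, Csf1r, Cd4 and Cbfa2t3 were each lost without at least 1 library. Over all loci 25.5% were higher and 26.1% lower. Markers in the same sums were 5 higher and 1 lower of 10 for fibroblasts, 3 and 0 of 5 for ES cells, 1 and 0 of 5 for EpiLC, 2 and 2 of 6 for macrophages and blood, 3 and 0 of 5 for endothelium, 1 and 2 of 6 for bone and cartilage and 2 and 1 of 3 for T cells; their part in the results was not tested.

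The genes whose peak numbers were most like each member's over the 25 pooled lists, with list length regressed out, are given as a description. For Runx2 they were Hecw2, Nedd9 and Phldb2 (Pearson r = 0.96, 0.95 and 0.95 across lists, among 1089 genes with a similar total of peaks). Hecw2 held 16 peaks in ES cell bulk at 0h and 56 in MEF bulk at 12h, beside 15 and 64 for Runx2. For Runx1 they were Dpysl3, Cdk14 and Col27a1 (0.92, 0.92 and 0.90, among 1328). Runx3 was most like Cntfr, Otop2 and Isl2 (0.87, 0.86 and 0.85, among 8447) and Cbfb most like Leprotl1, Smim4 and Abcf1 (0.88, 0.88 and 0.87, among 11802). The lists share cells, culture and depth, and none of these values carries a p.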

How the data were processed

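Chromatin accessibility was measured in 81 mouse samples, 3 in each of 27 groups. Reads were handled, per the submitters' processing notes, with MACS2 2.2.0, Bowtie2 2.2.5, cutadapt 2.2.0, bedtools 2.26.0, bcl2fastq 2.19.1 and SAMtools 1.4.1 on mm10. Neither their parameters nor any shift of reads for the transposase cut are given there. The authors deposited peak lists, whose score column is the peak caller's, lowest value 30 (32 for Q2), and raw read counts of the 6 aphidicolin-experiment libraries in 139000 regions. Per the peak names, reprogramming lists were called on merged replicates and sorted-fraction lists are consensus lists scored in 1 library; names in the ES cell lists do not tell. In reprogramming, the nascent-arm bulk lists were assigned by name and by elimination. Count columns carry numbers without a link to individual samples, and libraries are called a, b and c.

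Depth per library ran from 41183769 to 49440524 counts in the untreated group and from 55158844 to 78677381 in the aphidicolin group. No 2 libraries of a group matched within sampling noise (the lowest chi-square per degree of freedom was 1.88), and all 6 were kept apart. No label ties them to separate cultures, so the p-values speak only of the spread among these samples, and that spread may be technical.

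Regions and locus sums were tested with edgeR 4.0.16 (estimateDisp, glmQLFit, glmQLFTest, TMM, filterByExpr) in R 4.3.3, two-sided, with Benjamini-Hochberg adjustment over all 138996 regions or all 18144 locus sums and a threshold of 0.05. SE is the fold change divided by the root of F. The script was tested on simulated counts. Peak shares have Wilson 95% intervals; 1 bp of overlap counts as shared. Gene models and starts are RefSeq GRCm38.p6. Peaks and sequences were handled in Python 3.11.15. Reads at Col1a1 can come from the cassette.

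The named regions are, per locus, those within 1 kb of a start, the strongest, and up to 3 called in each direction with the largest change and groups that did not overlap; named sites are up to 3 per locus and direction with the highest score in the nascent-arm bulk list (6h for sites lost, 36h for sites gained); named pathway genes are up to 2 per list and direction by adjusted p. The members, gene lists and rules were chosen with earlier results of these data known. Alternatives were library totals, DESeq2 1.42.0 size factors and Wald test, strength offsets, no filter, each library left out, a replicate block, other windows, flanks, scores, list lengths and overlaps.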

Additional observations from a re-analysis of the deposited data

How the results depend on the processing

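Of 894 values recomputed under an alternative, 739 stayed on their side of the threshold or close to the reported count or share (11 of them, none called in either fit, had the other sign), 121 were no longer called, 6 became called, 25 counts, differences or shares moved and 3 turned direction. With offsets that follow region strength the region over the Runx1 proximal start gave -0.10, its neighbours 842 and 999 bp away -0.55 and -0.16, Runx3 distal -0.33 and the Cbfb promoter 0.14, and 2 called regions at Runx1 and Runx2 turned to 0.041 and 0.15; the cause was not tested. With those offsets 5 member regions were higher, the summed Cbfb locus gave 0.10 and was called. With library totals 18 regions were higher and 11 lower, the region 999 bp from the Runx1 proximal start gave -0.18 and the Cbfb promoter -0.11, neither called, and the summed Runx2 locus gave 0.10. DESeq2's Wald test called 5 regions higher. Among regions that hold a peak in each of the 6 libraries, which are fewer, 20 were called, 14 of them lower, and the Cbfb promoter gave -0.20. Leaving out 1 library gave 19 to 40 called regions (3 to 12 higher, 15 to 28 lower), -0.35 to -0.17 for the Cbfb promoter and 0.036 to 0.11 for the Runx2 sum, and 17 of 33 called regions were kept each time. Over all regions the same fits called 30467 to 57937, against 49935 with every library.

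The fit with the column number as a replicate block called 10 regions higher and 26 lower, and the Runx2 sum was called (0.077). The deviations of same-numbered libraries correlated at 0.26, 0.01 and 0.15, so not every pair exceeded 0.1 and the numbers were not taken to pair the samples; untreated b correlated best with aphidicolin c (0.02) and aphidicolin b with untreated c (0.14). Of peak results, equal list lengths gave differences of -4.67, -3.33, -2.67 and 0 peaks for Runx1, Runx2, Runx3 and Cbfb and 30.2% of 6h peaks lost, a score of at least 100 gave 2.67 for Runx3, the mature arm gave 13.4% of 36h peaks gained, and a 2 kb window gave 7 lists with a peak near Runx1 distal. Depth limits the nascent and mature lists, above all those of MEF 6h.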
